A study of Mus musculus with 4 samples.

Results

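Osteogenic genes, the genes that mark the bone-forming osteoblast lineage, were followed in stromal cells sorted from mouse bone marrow. The 9 genes were Runx2, Sp7, Alpl, Bglap, Ibsp, Spp1, Postn, Sparc and Mmp13, matched by symbol among the 31053 genes of the deposited matrices. For each gene the summed level, the number of cells with a transcript and the detection together with the other 8 genes were compared between a library from STAT5 knockout (STAT5 KO) mice and a library from control mice. All 9 genes passed a minimum of 20 transcripts over both libraries.

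The STAT5 KO mice had the genotype Vav1-Cre/+STAT5abfl/fl and the controls Vav1-Cre/+STAT5ab+/+, so that the Cre transgene was present in both groups and only the floxed Stat5a and Stat5b alleles differed. The Vav1 promoter is active in blood cells, so the transgene targets blood cells and not the stromal cells sorted here. Stromal cells were freed from crushed femurs and tibias of mice aged 6 to 8 weeks with collagenase. The sort took cells with Sca-1 (encoded by Ly6a) and CD140a (Pdgfra) that lacked CD45 (Ptprc) and CD71 and had little or no Ter119. Each genotype had 1 library of droplet single-cell RNA sequencing with 3′ counting, called the control MSC library and the STAT5 KO MSC library here. The labels do not give the number of mice behind the stromal libraries. The other 2 libraries of the series hold KLS cells, blood stem and progenitor cells of the same genotypes from mice aged 8 to 12 weeks, and served only for the level of the 9 genes in blood cells.

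Osteoblasts arise from marrow and bone-surface stromal cells under the transcription factor Runx2, and Sp7 (osterix) acts downstream of it. Committed cells then make alkaline phosphatase and a collagen matrix with proteins that bind mineral, and late cells make osteocalcin. Several of these genes are shared with other skeletal cells: Runx2 and Mmp13 with maturing cartilage cells, and Spp1, Postn and Sparc with many kinds of connective tissue cell.

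After filters the control MSC library held 579 cells with 1758763 unique molecular identifiers (UMIs, each 1 counted transcript) and a median of 2744 per cell. The STAT5 KO MSC library held 378 cells with 1210013 UMIs and a median of 2496. Levels are counts per 1000000 UMIs (CPM) summed over these cells, with exact Poisson 95% intervals. With 1 library per genotype no test was possible, so intervals cover counting error only, and a difference between genotypes cannot be told apart from one between mice or preparations. In the KLS libraries the level of Stat5a was 68.4 CPM in the control and 6.81 CPM in the STAT5 KO library, and that of Stat5b was 60.8 and 4.50 CPM. In the MSC libraries Stat5a was at 40.4 and 55.4 CPM and Stat5b at 51.2 and 46.3 CPM, in the same order, with overlapping intervals for each gene.

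The libraries share cell barcodes, which bears on several of the values that follow. The MSC libraries had 42 barcodes in common, and each was kept only in the library where it held more UMIs, which took 30 filtered cells from control and 6 from STAT5 KO. Of the cells that stayed, 11 in control and 30 in STAT5 KO have a barcode that the other library also lists. They were deep cells, with medians of 8652 and 11231 UMIs, against 545 and 832.5 UMIs under the same barcodes in the other library, at most 8.70% of the larger total. In STAT5 KO, 22 of these 30 belonged to a chondrocyte-like cluster described with the carrier cells. Of all 672 control and 425 STAT5 KO barcodes, 229 and 200 also occur in a KLS library, and 2 and 4 of the kept cells held more UMIs there.

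RefSeq promoter windows of build GRCm38.p6, 250 bases before to 50 bases after a start site, were listed for 8 of the 9 genes. Sp7 was not matched. The 6 letters TGTGGT, the core that Runx proteins bind, were found on either strand in 5 of the 8 genes, or 5 of their 11 windows, and in 16.8% of all 32851 windows. The 250 bases before the start sites of Bglap (chr3:88384467-88384716, minus strand), Spp1 (chr5:104434861-104435110, plus strand) and Mmp13 (chr9:7272264-7272513, plus strand) are printed because these 3 genes had the match upstream of the start and were more than 2-fold higher in the STAT5 KO library. They run 5′ to 3′ in the direction of the gene, and capitals mark the match, here the reverse complement ACCACA.
Bglap: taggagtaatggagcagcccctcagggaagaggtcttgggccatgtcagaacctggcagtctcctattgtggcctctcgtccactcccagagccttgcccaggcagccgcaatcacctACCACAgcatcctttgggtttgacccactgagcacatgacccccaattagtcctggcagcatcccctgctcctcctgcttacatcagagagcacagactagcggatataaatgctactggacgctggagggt
Spp1: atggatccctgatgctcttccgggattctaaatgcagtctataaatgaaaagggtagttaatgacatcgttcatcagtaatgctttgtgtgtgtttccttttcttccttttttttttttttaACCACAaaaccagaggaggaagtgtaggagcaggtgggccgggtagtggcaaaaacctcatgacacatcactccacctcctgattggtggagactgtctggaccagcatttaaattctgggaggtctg
Mmp13: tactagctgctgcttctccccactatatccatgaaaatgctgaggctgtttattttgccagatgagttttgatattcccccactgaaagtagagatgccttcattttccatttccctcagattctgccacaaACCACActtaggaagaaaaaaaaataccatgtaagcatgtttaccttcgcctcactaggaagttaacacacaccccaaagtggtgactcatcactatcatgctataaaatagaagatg
The matches began 132, 128 and 118 bases before the start site in Bglap, Spp1 and Mmp13. Runx2 had 3 matches, 1 of them 80 bases before its own start site, and the match of Sparc lay after the start. No match was found in the windows of Alpl, Ibsp and Postn. The letters TTCNNNGAA, the consensus that STAT5 binds, were found in 8.30% of all windows, on either strand, and in none of the 11 windows of the 8 genes. These matches describe letters in the windows and carry no measurement of binding.

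The regulators Runx2 and Sp7 gave few transcripts, and both were higher in STAT5 KO. Runx2 (chr17:44495987-44814797, minus strand, GRCm38) had 196 UMIs in 100 control cells, 111 CPM (96.4 to 128), and 176 UMIs in 83 STAT5 KO cells, 145 CPM (125 to 169). The log2 ratio of STAT5 KO over control was 0.38 (0.08 to 0.69). The gene was spread thinly, since no cell of either library held more than 6 UMIs. Sp7 (chr15:102356606-102367182, minus strand) had 24 UMIs in 18 control cells, 13.6 CPM (8.74 to 20.3), and 46 UMIs in 24 STAT5 KO cells, 38.0 CPM (27.8 to 50.7). Its ratio was 2.79-fold, or 1.48 on the log2 scale (0.74 to 2.25), a wide interval that reflects the few counts.

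Alpl, alkaline phosphatase, frees phosphate for mineral (chr4:137741733-137796384, minus strand). It had 336 UMIs in 50 control cells, 191 CPM (171 to 213), and 204 UMIs in 32 STAT5 KO cells, 169 CPM (146 to 193). The log2 ratio was -0.18 (-0.44 to 0.07), and the intervals of the 2 libraries overlap. In control, 3 cells with 80, 55 and 34 UMIs held 50.3% of the Alpl transcripts.

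Among the matrix genes, Bglap encodes osteocalcin, the calcium-binding protein of mature osteoblasts (chr3:88383501-88384464, minus strand). Bglap had 821 UMIs in 40 control cells, 467 CPM (435 to 499.9), and 1374 UMIs in 39 STAT5 KO cells, 1136 CPM (1076 to 1197). The cells with a transcript were about equal in number, and the median cell with Bglap held 3 UMIs in control and 22 in STAT5 KO. The level was 2.43-fold higher in STAT5 KO, 1.28 on the log2 scale (1.16 to 1.41).

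The neighbouring Bglap2 (chr3:88377736-88378699) encodes a near-identical osteocalcin, and the last 200 bases of the first-numbered GENCODE transcripts of Bglap and Bglap2 differ at only 1 base (199 of 200 identical). With 3′ counting, reads of the copies could be split between them or lost, so the value of each alone is uncertain. Bglap2 was at 265 CPM in the control and 449 CPM in the STAT5 KO library. Bglap3 had 3 and 2 UMIs. Summed over the 3 copies the level was 733 and 1586 CPM, a log2 ratio of 1.11 (1.01 to 1.22), and the count of Bglap per Bglap2 was 1.76 and 2.53.

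Ibsp, bone sialoprotein, which nucleates mineral (chr5:104299171-104311469, plus strand), was found in more control cells than any member but Sparc, and in STAT5 KO in fewer than Runx2 and Spp1. It had 2143 UMIs in 129 control cells, 1218 CPM (1167 to 1271), and 1178 UMIs in 66 STAT5 KO cells, 974 CPM (919 to 1031). Ibsp thus went the other way from Bglap, 1.25-fold higher in control, with a log2 ratio of -0.32 (-0.43 to -0.22).

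Spp1, osteopontin, a matrix protein of osteoblasts that immune and other stromal cells also make (chr5:104435118-104441050, plus strand), had the largest ratio of the 9. It had 1547 UMIs in 116 control cells, 879.6 CPM (836 to 925), and 3587 UMIs in 67 STAT5 KO cells, 2964 CPM (2868 to 3063). The ratio was 3.37-fold, or 1.75 on the log2 scale (1.67 to 1.84). A few cells carried it, because 3 STAT5 KO cells with 1134, 438 and 403 UMIs held 55.1% of that library's Spp1 transcripts, against 21.6% for the 3 highest control cells. Without the 3 highest cells of each library the log2 ratio was 0.95.

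Postn, periostin, made by the periosteum, tendon and fibroblasts (chr3:54361109-54391037, plus strand), was the only member more than 2-fold lower in STAT5 KO. It had 376 UMIs in 64 control cells, 214 CPM (193 to 237), and 113 UMIs in 24 STAT5 KO cells, 93.4 CPM (77.0 to 112). Control was 2.29-fold higher, a log2 ratio of -1.19 (-1.51 to -0.89).

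Sparc, osteonectin, a collagen-binding protein of many connective tissues (chr11:55394500-55423183, minus strand), had the most UMIs and the most cells of the 9 genes. It had 13092 UMIs in 418 control cells, 7444 CPM (7317 to 7572), and 19945 UMIs in 261 STAT5 KO cells, 16483 CPM (16255 to 16714). The share of cells with a transcript was 72.2% and 69.0%, so the 2.21-fold higher level (log2 ratio 1.15, 1.12 to 1.18) came with no larger share of cells.

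Mmp13, collagenase 3, which cuts fibrillar collagen in bone and cartilage (chr9:7272514-7283331, plus strand), had 231 UMIs in 52 control cells, 131 CPM (115 to 149). In STAT5 KO it had 472 UMIs in 33 cells, 390.1 CPM (356 to 427). The ratio was 2.97-fold, or 1.57 on the log2 scale (1.34 to 1.80). A single STAT5 KO cell with 143 UMIs held 30.3% of the library's Mmp13, and the 3 highest held 53.0%. Without the 3 highest cells of each library the log2 ratio was 1.01.

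**Figure D1:**
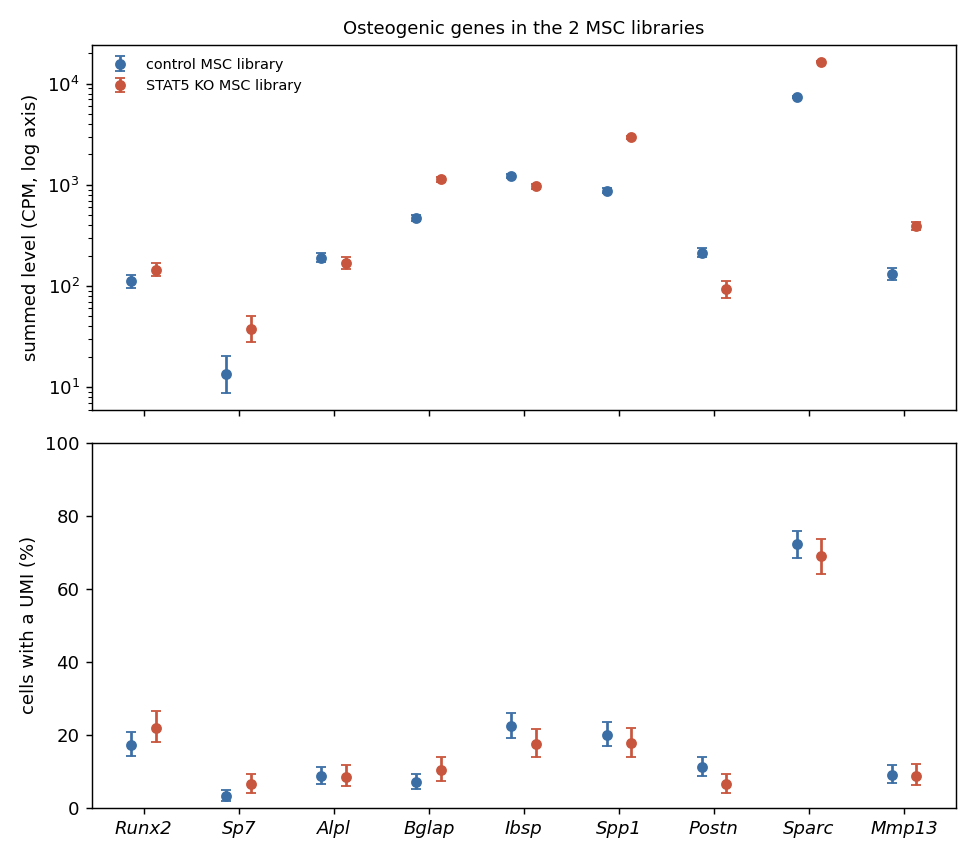
Summed level in CPM on a log axis (top, bars are exact Poisson 95% intervals) and share of cells with a UMI in percent (bottom, exact Clopper-Pearson 95% intervals) for the 9 genes in the control (blue) and STAT5 KO (red) MSC libraries. Levels of Sp7, Bglap, Spp1, Sparc and Mmp13 are more than 2-fold higher in STAT5 KO and Postn is lower. The share of cells, not thinned for depth, is also higher for Sp7 (3.11% and 6.35%) and Bglap (6.91% and 10.3%). It is lower for Postn (11.1% and 6.35%), and not higher for Spp1, Sparc and Mmp13.

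In all, 5 of the 9 genes were at least 2-fold higher in STAT5 KO (Sp7, Bglap, Spp1, Sparc and Mmp13) and 1, Postn, at least 2-fold lower. Of the 10168 genes with 20 or more UMIs, 3.19% were at least 2-fold higher, 3.27% at least 2-fold lower and 6.46% past 2-fold in either direction. The median log2 ratio of the 9 genes was 1.15, against -0.07 over all these genes. In the plot of levels and shares, for Runx2 (17.3% of control and 22.0% of STAT5 KO cells), Sp7 (3.11% and 6.35%), Bglap (6.91% and 10.3%), Ibsp (22.3% and 17.5%) and Postn (11.1% and 6.35%) the share of cells with a UMI differed in the same direction as the level. For Spp1 (20.0% and 17.7%), Mmp13 (8.98% and 8.73%) and Sparc (72.2% and 69.0%) the level was higher in STAT5 KO while the share was not.

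Each cell was also thinned to 1000 UMIs, which left 436 control and 279 STAT5 KO cells. The thinned share of cells with Bglap was 5.28% in control and 10.4% in STAT5 KO, a difference of 5.12 percentage points (1.16 to 9.60), and with Ibsp 23.9% and 16.8%, a difference of -7.01 (-12.8 to -0.88). For the other 7 genes the interval of the difference included 0. The thinned share of Sp7 was 2.29% in control and 2.15% in STAT5 KO, so its higher share without thinning was not seen at equal depth. A cluster of erythrocyte-gene cells, with 33.9% of its UMIs from hemoglobin genes and medians of 648 and 633 UMIs, served as background for free RNA. Among its 124 control and 95 STAT5 KO cells, Runx2, Sp7, Bglap, Ibsp, Postn and Mmp13 had no UMI in either library, Alpl was seen in 1 cell, Spp1 in 2 and 3 cells, and Sparc in 3 and 2 cells. With 3 counts taken as the limit for a count of 0, 0 among 124 and 95 cells allows shares of up to 2.42% and 3.16%.

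The cells that carried the transcripts were sought by clustering both MSC libraries together without the osteogenic genes. Most members were concentrated in a few clusters. A CXCL12-abundant stromal-like cluster, led by Hp, Adipoq and Cxcl12, is named after the niche cells that feed blood stem cells, and held 101 control and 55 STAT5 KO cells. A chondrocyte-like cluster, led by Col9a2, Col9a3 and Col2a1, held 6 control and 25 STAT5 KO cells, so that most of it came from 1 library and may be that library rather than a type. The remaining cluster of interest was led by S100a8, S100a9 and Jchain, took no name, and held 35 control and 20 STAT5 KO cells.

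In the control library the CXCL12-abundant stromal-like cells, 17.4% of cells and 22.6% of UMIs, held 75.3% of Ibsp, 71.4% of Mmp13, 66.3% of Runx2 and 63.6% of Spp1 transcripts. The unnamed S100a8 cluster, 5.10% of UMIs, held 72.2% of Bglap and 50% of Sp7. Most control transcripts of Ibsp and of Bglap thus lay in different clusters.

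In the STAT5 KO library the chondrocyte-like cells, 6.61% of cells and 24.3% of UMIs, held 76.2% of Sparc, 75.3% of Bglap, 69.6% of Sp7 and 62.3% of Alpl. The unnamed S100a8 cluster held 54.1% of Spp1 and 52.3% of Mmp13. Postn kept apart from the chondrocyte-like cells, which had no Postn UMI in either library. Most Postn of the STAT5 KO library, 63.7%, lay in a cluster led by Has1, Procr and Pi16, and in control that cluster held 33.0% and a tenocyte or synovial-like cluster 27.4%.

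**Figure D2:**
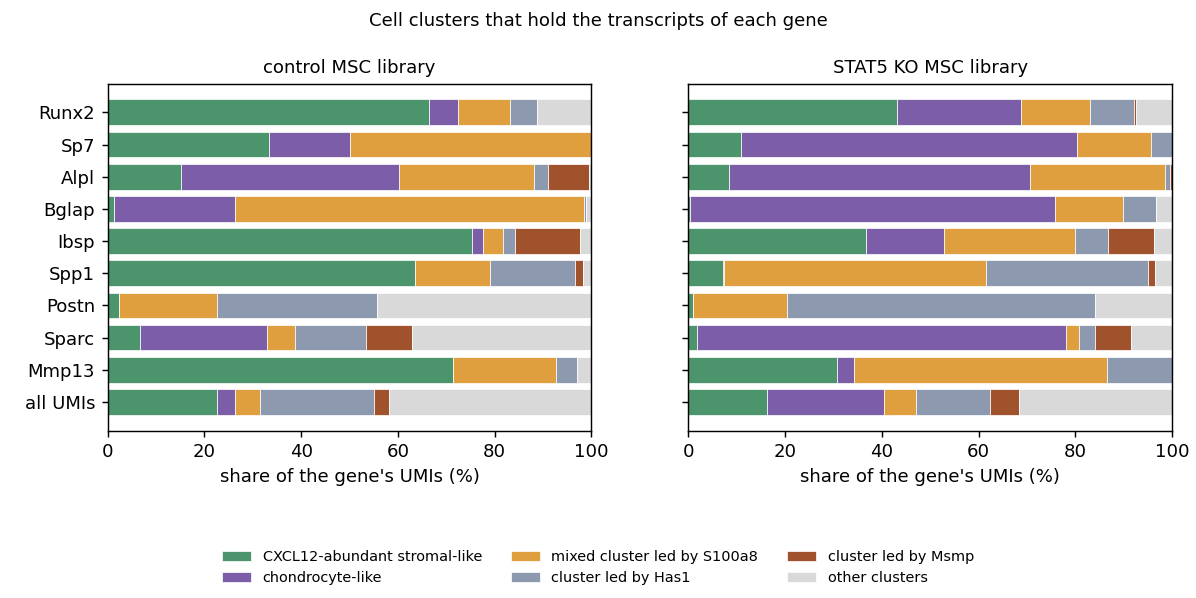
Share of each gene's UMIs, in percent, that lay in each cell cluster of the control (left) and STAT5 KO (right) MSC libraries, with the share of all UMIs as the lowest bar. The chondrocyte-like cells hold 26.4% of Sparc in control and 76.2% in STAT5 KO, and the CXCL12-abundant stromal-like cells hold 63.6% and 7.16% of Spp1.

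Within the CXCL12-abundant stromal-like cluster, the members did not share a direction. Ibsp was at 4069 CPM in the control and 2198 CPM in the STAT5 KO library (log2 ratio -0.89, -1.05 to -0.73), with UMIs in 95 of 101 and 41 of 55 cells. Spp1 was at 2481 and 1308 CPM (-0.92, -1.13 to -0.72), in 78 and 31 cells. The ratio of Spp1 in this cluster thus had the opposite sign to that over all cells.

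Mmp13 was at 416 and 738 CPM there (0.83, 0.49 to 1.16), in 41 and 24 cells, and 1 STAT5 KO cell held 56 of the 145 UMIs. When the osteogenic genes were kept in the clustering, Mmp13 was at 330.1 and 393 CPM in the corresponding cluster of 97 and 51 cells, with an interval of the log2 ratio from -0.18 to 0.68. Runx2 was at 328 and 387 CPM, with an interval of the log2 ratio from -0.19 to 0.66. Bglap, at 25.2 and 30.5 CPM, was close to missing from these cells. The sort gene Pdgfra was found in 63 of 101 and 31 of 55 of them, Ly6a in 3 and 1, and Ptprc in none.

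In the chondrocyte-like cluster, of which 4 control and 22 STAT5 KO cells have a barcode listed in both libraries, the levels of Bglap and Sparc lay close together in both libraries. Bglap was at 3071 CPM in the control and 3520 CPM in the STAT5 KO library (log2 ratio 0.20, -0.02 to 0.42), and Sparc at 51524 and 51682 CPM (0.00, -0.05 to 0.06). Alpl was the exception, at 2251 and 432 CPM (-2.38, -2.73 to -2.03), from 4 and 14 cells. Its control level rested on few cells, since a single cell held 80 of the 151 UMIs and another held 55. Single cells varied widely, since Bglap ran from 4 to 136 UMIs over the 6 control cells and from 0 to 184 over the 25 STAT5 KO cells.

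These cells carried markers of cartilage together with Bglap and Sparc, and lacked Pdgfra and nearly all Col1a1. Most of them had no Ibsp, which was found in 2 of 6 control and 5 of 25 STAT5 KO cells. A single cell held 47 of the 48 control Ibsp UMIs, and another 141 of the 190 in STAT5 KO. Col2a1, the main cartilage collagen, had a UMI in 6 of 6 and 25 of 25 cells, whereas Col1a1, the main bone collagen, had 1 UMI in control and none in STAT5 KO. Pdgfra was at 0 in both libraries, and Ly6a was found in 1 and 4 cells. Among markers of hypertrophic cartilage cells, Col10a1 was at 0, Ihh was found in 2 of 6 and 8 of 25 cells, and Pth1r, the parathyroid hormone receptor, was at 2028 and 1085 CPM. Over all kept cells the 7 hypertrophic markers, which include Sp7 and Mmp13, summed to 477 and 1067 CPM, 6 of them higher in STAT5 KO. The other marker, Col10a1, had 45 UMIs in 2 control cells outside this cluster, 40 of them in a single cell, and 0 in STAT5 KO. Over all kept cells the 15 chondrocyte markers summed to 7983 CPM in the control and 31400 CPM in the STAT5 KO library, and all 15 were higher in STAT5 KO. The 12 osteoblast markers, 4 of which are among the 9 genes, summed to 9229 and 8194 CPM, with 8 of them higher and 4, Col1a1 among them, lower in STAT5 KO. The 12 markers of CXCL12-abundant stromal cells summed to 11941 and 8066 CPM, with 11 of them lower in STAT5 KO. The part of these cells in the ratios was measured directly: without the chondrocyte-like cluster the log2 ratio was 0.03 for Bglap, -0.14 for Sparc and 0.37 for Sp7, and it was 2.10 for Spp1 and 1.86 for Mmp13.

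**Figure D3:**
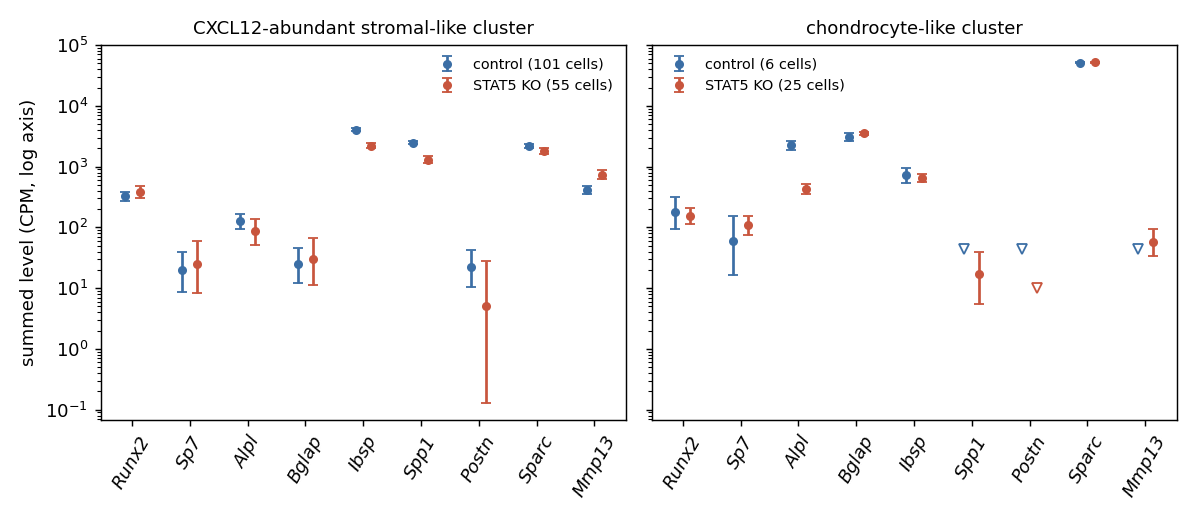
Level in CPM on a log axis of the 9 genes within the CXCL12-abundant stromal-like cluster (left) and the chondrocyte-like cluster (right), in control (blue) and STAT5 KO (red), with exact Poisson 95% intervals. Open triangles mark genes with no UMI, placed at the level of 3 counts, and Sparc at 51524 and 51682 CPM shows how close the libraries lay in the chondrocyte-like cells.

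The unnamed S100a8 cluster was a mixture. Only 4 of its 35 control and 3 of its 20 STAT5 KO cells had 5 or more UMIs of leukocyte markers, whereas 23 and 11 had 5 or more UMIs of Col1a1, and none had both. When the osteogenic genes were kept in the clustering, which was added after seeing the data, 20 and 9 of its cells moved to an osteoblast-like cluster of 28 control and 17 STAT5 KO cells, led by Dmp1, Spp1 and Mmp13. Those members define that cluster, so their levels in it are a description.

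In the osteoblast-like cluster Spp1 was at 8833 CPM in the control and 57272 CPM in the STAT5 KO library, and Mmp13 at 1305 and 6616 CPM. Bglap was at 8126 and 5507 CPM, the reverse of its order over all cells. Col1a1 was at 27694 and 41067 CPM, and Pdgfra was found in 8 of 28 and 4 of 17 cells. This cluster held 90.7% of the Spp1 transcripts of the STAT5 KO library and 42.0% of those of control.

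Detection in the same cell was counted for each pair of members. In control, 85 cells held both Ibsp and Spp1, which was 65.9% of Ibsp cells and 73.3% of Spp1 cells, and 46 of the 52 Mmp13 cells (88.5%) also held Ibsp. In STAT5 KO, 37 cells held both Ibsp and Spp1, 56.1% of Ibsp cells and 55.2% of Spp1 cells, and 27 of 33 Mmp13 cells (81.8%) held Ibsp.

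The partners of Sp7 were in another order in each library. In STAT5 KO, 21 of 24 Sp7 cells (87.5%) held Bglap, 20 (83.3%) Runx2, 15 (62.5%) Alpl and 10 (41.7%) Ibsp. In control, 14 of 18 Sp7 cells (77.8%) held Ibsp, 13 (72.2%) Alpl, 12 (66.7%) Runx2 and 11 (61.1%) Bglap. Of the Bglap cells, 23 of 40 in control (57.5%) and 29 of 39 in STAT5 KO (74.4%) held Runx2. These shares were not thinned for depth, and deep cells detect more genes. Sparc was found in 88.1% or more of the cells of each other member, and therefore separates none of them.

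**Figure D4:**
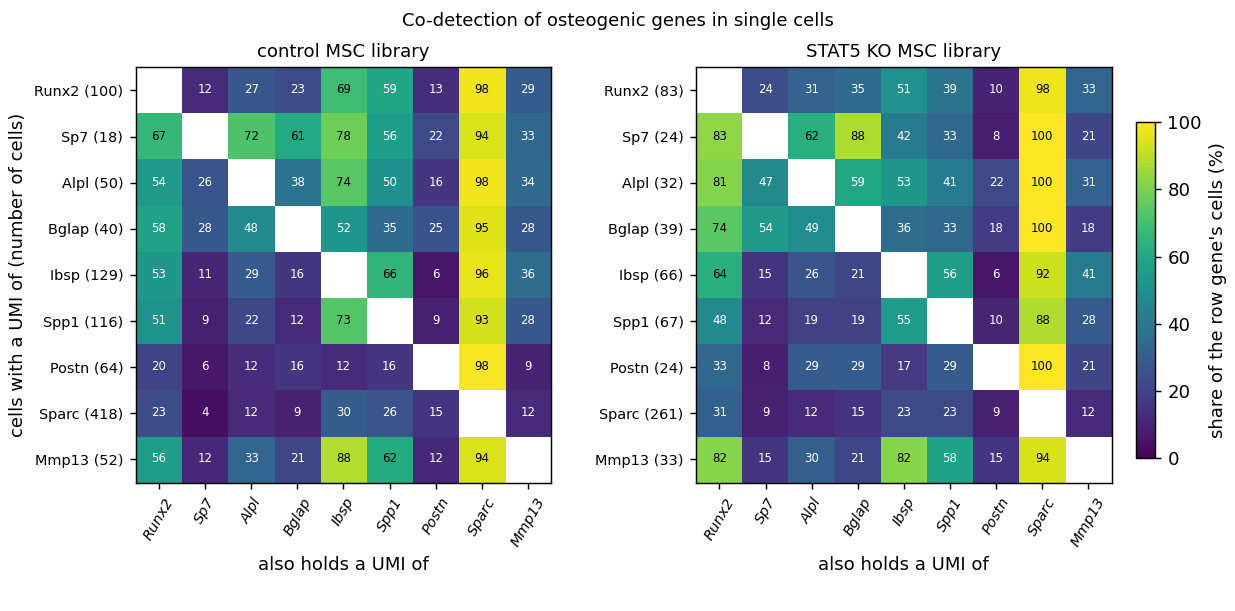
Share of the cells with a UMI of the row gene that also held a UMI of the column gene, in percent, for the control (left) and STAT5 KO (right) MSC libraries, with the number of row-gene cells in parentheses. The Mmp13 row shows 88.5% and 81.8% with Ibsp, and the Sparc column is high throughout.

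The 6 members of restricted expression (Runx2, Sp7, Alpl, Bglap, Ibsp and Mmp13) were used to count cells with several osteogenic genes. The name means only that Spp1, Postn and Sparc were left out as broadly expressed. Runx2 was not restricted to stromal cells. Without barcodes larger in another library, it was at 100.1 CPM in control KLS and 96.2 CPM in STAT5 KO KLS. At 1000 UMIs per cell, 66 of 436 control cells (15.1%) and 44 of 279 STAT5 KO cells (15.8%) held at least 2 of the 6. The difference was 0.63 percentage points (-4.65 to 6.27). Without thinning the shares were 20.2% and 20.1%, and in the erythrocyte-gene cluster 0 of 124 and 0 of 95 cells held 2 of the 6. The number of such cells therefore differed by less than the counting error, while the levels of Sp7, Bglap and Mmp13, which are among the 6, differed by more than 2-fold.

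At least 3 of the 6 genes were found in 60 control cells (10.4%) and 50 STAT5 KO cells (13.2%). In control, 38 of the 60 were CXCL12-abundant stromal-like, 15 were in the unnamed S100a8 cluster and 4 were chondrocyte-like. In STAT5 KO the numbers were 23, 7 and 17 of 50. All 6 genes were found together in 3 control cells and in no STAT5 KO cell. All 22 cells from the S100a8 cluster had Col1a1, and none of the 21 chondrocyte-like cells did.

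The wider osteogenic pathway was read from 8 lists. Apart from the members they hold 104 genes with 20 or more UMIs. Of these, 2 were at least 2-fold higher and 5 at least 2-fold lower in STAT5 KO. Over all 10168 genes with this minimum the shares were 3.19% and 3.27%, and 6.46% in either direction. Taken in either direction, the calls in the lists were thus near the share over all genes. The median log2 ratio of the 104 genes was -0.16. The median of the 9 members, 1.15, was therefore not shared by the rest of the listed pathway. The 17 ligands, the 15 receptors and the 8 genes of osteoclast coupling had no gene past 2-fold, with medians of -0.17, -0.01 and -0.26. Among the receptors Pth1r came closest, at 172 and 337 CPM, and 64.0% of its transcripts lay in the chondrocyte-like cells.

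Regulators had 1 of 13 genes past 2-fold, Sp7 itself, and a median of -0.28. Twist1, which restrains osteoblast maturation, was at 161 and 118 CPM, and Atf4, which supports collagen and osteocalcin synthesis, at 456 and 517 CPM. Of 14 inhibitors, the secreted Wnt antagonists Sfrp2 (114 and 25.6 CPM, log2 ratio -2.15, -2.75 to -1.60) and Sfrp4 (622 and 305 CPM, -1.03, -1.20 to -0.86) were lower in STAT5 KO. Frzb, also a Wnt antagonist, was higher, at 7.39 and 30.6 CPM (2.05, 1.10 to 3.08), with 54% of its transcripts in chondrocyte-like cells.

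The 20 matrix genes had a median of -0.32 and 2 lower genes, the collagen-bound proteoglycan Aspn (720 and 358 CPM) and the cross-linking enzyme Loxl1 (267 and 119 CPM). The bone collagens Col1a1, at 6978 and 5178 CPM, and Col1a2, at 6093 and 4561 CPM, were not past 2-fold. Among 14 mineralization genes only the potassium channel gene Kcnk2 was past 2-fold (44.3 and 15.7 CPM), and the median was 0.31. Of 5 osteocyte genes, Dmp1, a mineral-binding protein of osteocytes, was higher, at 17.1 and 76.9 CPM (2.17, 1.56 to 2.82). Dmp1 came from 4 control and 8 STAT5 KO cells.

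The 10 genes whose level most closely followed the number of the 6 restricted members per cell were sought among 7244 genes. They were Tmem176a, Lifr, Pth1r, Chrdl1, Gdpd2, Tmem176b, Cdh11, Igsf3, Kitl and Foxc1. Across the 579 control and 378 STAT5 KO cells the smaller of the 2 within-library Pearson correlations was 0.53 for Tmem176a and 0.46 for Foxc1, values that share the depth of the cells and are given as a description. Most of these genes shared the CXCL12-abundant stromal-like carriers: that cluster held 97.5% of Gdpd2, 95.4% of Kitl, which encodes stem cell factor, and 84.5% of Tmem176a transcripts. Pth1r was the exception with 10.4%.

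In the KLS libraries, barcodes that held more UMIs in another library carried much of the signal of the 9 genes, though not to the same extent. They held 99.7% of the Sparc and 98.9% of the Bglap UMIs of control KLS, and 98.7% and 95.5% of those of STAT5 KO KLS. For Spp1 the shares were 76.3% and 54.9%, for Postn 53.6% and 40.2%, and for Runx2 0.83% and 0.37%. Without them Runx2 was at 100.1 and 96.2 CPM, against 111 and 145 CPM in the stromal libraries. The other 8 genes were at most at 3.14 CPM in control KLS and 3.38 CPM in STAT5 KO KLS, values that belong to Spp1.

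The ratios differed in how far they rested on a few cells or on 1 cluster. Without all barcodes that both MSC libraries list, which removed 11 control and 30 STAT5 KO deep cells, Bglap was at 381 and 452 CPM and Sparc at 5912 and 5434 CPM. Their log2 ratios were then 0.25 and -0.12, and that of Sp7 was 0.62. Spp1 and Mmp13 kept the higher level in STAT5 KO in each of the 17 alternatives run, with log2 ratios from 0.87 to 2.99 and from 0.85 to 2.74. None of the 17 left out the whole osteoblast-like cluster, which held most Spp1 and most Mmp13 transcripts of STAT5 KO. The ratios without it were not computed, so the 17 do not show whether either gene was higher outside that cluster. Within the CXCL12-abundant stromal-like cluster the log2 ratio of Spp1 was -0.92. Postn kept the lower level in all 17, from -1.50 to -0.62. Its main STAT5 KO carriers, the cluster led by Has1, did not show this lower level. The log2 ratio of Postn there was 0.38, with an interval that included 0 (-0.06 to 0.81). It was -1.78 (-2.83 to -0.88) in the tenocyte or synovial-like cluster and -1.59 (-2.35 to -0.89) in the S100a8 cluster.

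Weighting each cluster by its share of control cells, chosen after the data were seen, gave 0.06 for Bglap, -0.30 for Sparc, 0.32 for Sp7 and -1.33 for Alpl. Without the cell filter Bglap had a log2 ratio of 0.24, because 59 control barcodes that failed it held 872 of the 1772 Bglap UMIs of that library. The plot of ratios under 5 settings shows the ratios of Bglap, Sparc and Sp7 at 0.37 or less without chondrocyte-like cells and with weighted clusters, where Sparc is below 0, and that of Bglap also without the cell filter. Runx2 stays between 0.34 and 0.47.

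**Figure D5:**
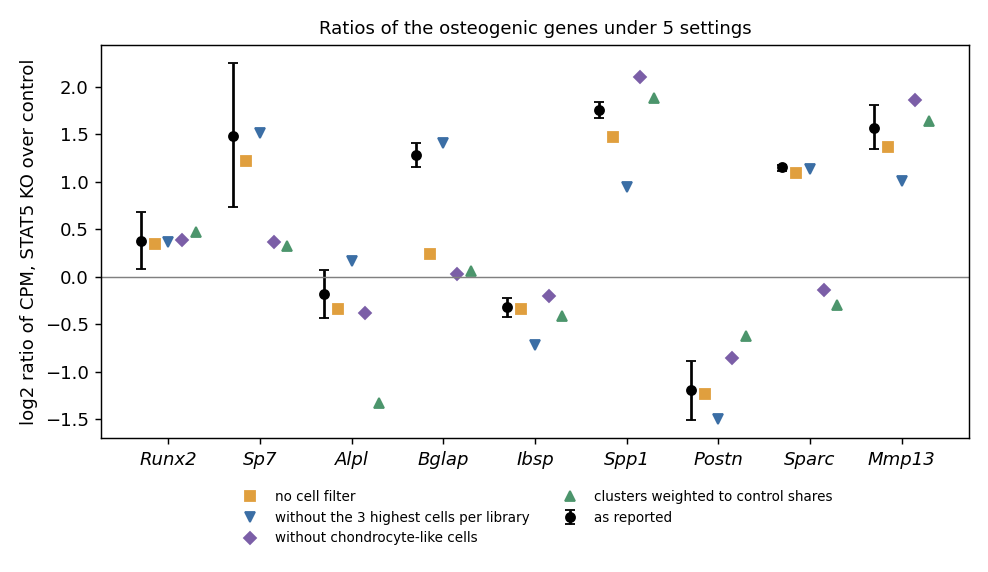
Log2 ratio of CPM in STAT5 KO over control for the 9 genes as reported (black, bars are exact conditional binomial 95% intervals) and under 4 alternatives, with the line at 0 for equal levels. Without chondrocyte-like cells Bglap is at 0.03 and Sparc at -0.14, while Spp1 is at 2.10 and Mmp13 at 1.86.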

How the data were processed

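The 4 libraries are droplet single-cell RNA sequencing with 3′ chemistry, per the labels' protocols. The deposited matrices hold raw counts of UMIs per gene and cell barcode, with no normalization. The software version 3.1.0 is given per the file headers, and Cell Ranger is named in the submitters' processing notes. Aligner settings, strand rule and cell calling are not given in the sources used here. The smallest MSC barcode held 501 UMIs. The 9 genes, the lists and the marker lists were chosen with earlier results of these data known. All 9 genes are named, with listed genes past 2-fold, up to 4 genes of most UMIs per list, and the 10 genes most like the members.

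A barcode had to show 200 or more genes and no more than 10% of its UMIs from mitochondrial genes, which left 613 of 672 control and 385 of 425 STAT5 KO barcodes. The highest Scrublet doublet scores (scanpy 1.11.5) were left out at 0.8% per 1000 barcodes, 4 in control and 1 in STAT5 KO, and then barcodes with more UMIs in the other MSC library. CPM used all gene UMIs of kept cells. Ratios carry exact conditional binomial 95% intervals, and differences of shares carry Newcombe intervals. Counts past 2-fold and list medians used a pseudocount of 1 CPM and a minimum of 20 UMIs. No correction for free RNA was made, and no cell annotation of the authors was used.

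For clustering, counts scaled to 10000 per cell were log-transformed. The osteogenic lists were left out, and the 2000 most variable other genes entered 30 principal components. Leiden clusters came from the 15 nearest neighbours (resolution 1, igraph 0.11.9). A name needed at least 3 markers of a class among the 10 leading genes. That at least 50% of the cells hold a leading marker was required after the data were seen. Scaling by edgeR 4.0.16 (TMM) was an alternative. The ratio calculation was tested on simulated data. Coordinates are those of GENCODE M21, on the build GRCm38 that the submitters' processing notes name.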

Additional observations from a re-analysis of the deposited data

Results flagged for a closer look

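Barcodes outside the comparison, those that failed the cell filter, held some of the osteogenic genes at levels above those of the kept cells of the same library, with intervals that do not overlap. In control, 59 barcodes failed, 48 of them on the mitochondrial share. Bglap was at 12241 CPM in them, against 467 CPM in kept cells, and Bglap2 at 5812 CPM against 265 CPM. Of these Bglap UMIs, 640 came from 7 barcodes with 66 to 115 Bglap UMIs each and mitochondrial shares from 11.4% to 21.0%. Spp1 was at 5264 CPM, Alpl at 814 CPM and Mmp13 at 772 CPM in the failed control barcodes. These came from 13, 16 and 7 barcodes, and the intervals do not cover differences between cells. Runx2 was at 267 CPM and Sp7 at 84.2 CPM there, the latter from 6 UMIs. Ibsp (941 CPM against 1218 CPM), Sparc (7328 against 7444) and Postn (267 against 214) were not separated from their kept levels in this way. In STAT5 KO, 40 barcodes failed. Mmp13 was the only member above its kept level with no overlap of the intervals, at 719 CPM against 390.1 CPM. That value rested on 38 UMIs in 4 barcodes. Bglap (94.5 CPM against 1136 CPM), Sparc (964 against 16483), Spp1 (1475 against 2964) and Ibsp (492 against 974) were lower in the failed STAT5 KO barcodes than in kept cells. No STAT5 KO barcode that failed held 50 or more Bglap UMIs, and the 40 together held 5. The part of the mitochondrial share in these levels was not tested.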

How the results depend on the processing

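The difference in the share of cells with several restricted members lay between -2.45 and 3.79 percentage points under all 16 alternatives. Each value was within the interval as reported for 2 or more members at 1000 UMIs. Some alternatives measured another share, with at least 1 or at least 3 of the 6, or at another depth, so that interval is no test of them. Log2 ratios of the other results moved past their counting intervals under the settings given here, and where no value shows the cause, the cause was not tested. Without barcodes listed in both MSC libraries, Sp7 was at 0.62, Alpl -0.86, Bglap 0.25, Ibsp -0.69, Spp1 1.58 and Sparc -0.12, the median at 0.25, with 2 members higher and 0 lower. Without chondrocyte-like cells Sp7 was at 0.37, Bglap 0.03, Ibsp -0.20, Spp1 2.10, Postn -0.85, Sparc -0.14 and Mmp13 1.86, the median at 0.03, with 2 higher and 0 lower. The shares over all such genes were then 1.85% and 2.50%. The mean of single-cell CPM gave Sp7 0.22, Alpl -0.67, Bglap -0.33, Ibsp -0.66, Spp1 1.91, Sparc 0.47 and Mmp13 1.84, median 0.21 and 2 higher. By that measure 3.17% of all such genes were higher. Stromal clusters alone, 400 control and 253 STAT5 KO cells, gave Bglap 2.91, Ibsp -0.72, Spp1 0.87, Sparc 1.19 and Mmp13 0.85, with 3 higher. Under that setting 3.25% of all such genes were higher. That setting also left out the unnamed S100a8 cluster with its Col1a1 cells, which held 72.2% of control Bglap. No cell filter gave Bglap 0.24, Spp1 1.47, Sparc 1.09 and a median of 0.33. The stricter filter gave Bglap 1.78, Sparc 1.21 and a median of 1.21. Without the highest cell of each gene, Ibsp was at -0.49, Spp1 1.33, Sparc 1.21, Mmp13 1.23 and the median at 1.21. Keeping barcodes larger in the other library gave Spp1 1.66 and Sparc 1.04, and TMM factors gave Sparc 1.19 and a median of 1.19.

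The following were chosen after seeing the data. Without the CXCL12-abundant stromal-like cluster Runx2 was at 1.03, Ibsp 0.92, Spp1 2.99, Sparc 1.11 and Mmp13 2.74. Without the S100a8 cluster Sp7 was at 2.26, Bglap 2.93, Ibsp -0.70, Spp1 0.89, Sparc 1.21 and Mmp13 0.87, with 3 higher. Clusters weighted to control shares gave Sp7 0.32, Alpl -1.33, Bglap 0.06, Spp1 1.88, Postn -0.62 and Sparc -0.30, a median of 0.06 and 2 higher. With that weighting 2.11% of all such genes were higher. Without the 3 highest cells of each gene, Alpl was at 0.17, Ibsp -0.72, Spp1 0.95 and Mmp13 1.01, with 3 higher. The share over all such genes was then 3.03%.

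No paired analysis was possible because each genotype has 1 library. Leaving out the cell with most UMIs of a gene gives no value for the share of cells, which was not run. Depth limits Sp7 most, with 24 and 46 UMIs.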

Other observations

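A cluster led by Msmp, Prg4 and Cytl1, with 13 control and 16 STAT5 KO cells, carried Ibsp without Bglap, Sp7, Postn or Mmp13, of which it had no UMI. Ibsp was at 5066 CPM in the control and 1530 CPM in the STAT5 KO library there (log2 ratio -1.73, -2.05 to -1.41), from 7 and 3 cells. Alpl in the same cluster was at 492 CPM from 5 control cells and had 1 UMI in STAT5 KO. Sparc, at 21530 and 20441 CPM, was about equal in both.

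Dmp1 transcripts of STAT5 KO lay to 93.5% in the cluster led by Has1, from 4 cells. In the same cluster 8 STAT5 KO cells held 1204 Spp1 UMIs. In control that cluster held 272 Spp1 UMIs in 10 cells. With the osteogenic genes kept in the clustering, a fibroblast-like cluster with the same 3 leading genes, Has1, Procr and Pi16, held 0 and 2 Spp1 UMIs and no Dmp1. Postn was found there at 386 CPM in the control and 446 CPM in the STAT5 KO library.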
